A study of Mus musculus with 4 samples.

Results

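The genes described here code for the proteins of the cytosolic ribosome. They were chosen by symbol, not by any measured value: of 32285 genes in the count tables, 86 had symbols that start with Rpl or Rps once the kinases named Rps6k and symbols marked -ps for pseudogenes were left out, and 84 of these had at least 20 UMIs (unique molecular identifiers, which count captured transcripts) over all libraries. The 84 members comprise 50 Rpl genes, named for the large subunit, and 34 Rps genes, named for the small subunit. Rpl10l, with 0 UMIs, and Rpl3l, with 16 UMIs, fell under the minimum. Rps19bp1 carries the prefix but codes for an RPS19-binding protein, not a ribosomal subunit, and Rpl7l1, Rpl22l1, Rpl36al, Rpl39l, Rps27l and Rps27rt are paralogs or copies of core members. The members together supplied 11.1% of all UMIs in the 15212 cells kept.

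The mice were C57BL/6N males, 10 months of age, and the cells came from their sensory cortex. Stroke was made by blocking the middle cerebral artery at its distal part (dMCAO). The infarct core was taken with a rim of about 2 mm of cortex, and the labels give the sham samples the same tissue name. There were 4 groups: sham surgery with an isotype control antibody, dMCAO stroke with the isotype control antibody, dMCAO stroke with anti-VCAM1 and dMCAO stroke with anti-VLA4, each antibody given for 10 weeks. VCAM1 is an adhesion molecule of activated endothelium and VLA4 is the leukocyte integrin that binds it. Each group was 1 library from the pooled tissue of 4 to 5 mice, made with a protocol adjusted for endothelial and immune cells in which dead cells were excluded and the cells were stained with antibodies to CD31 and CD45. No group had a replicate library, so every difference below is a difference between libraries and has no test, and intervals are 95% intervals that cover counting error only. For the effect of stroke, the 2 isotype libraries were compared, stroke over sham. Both antibody comparisons used the stroke isotype library as their control and so share it.

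A ribosome joins a large and a small subunit, each built from ribosomal RNA and a fixed set of proteins that are needed in like amounts. In mammals the mRNAs of these proteins typically begin with a C followed by a run of pyrimidines, the 5′ terminal oligopyrimidine (TOP) tract, through which the mTOR pathway and the RNA-binding protein LARP1 control their translation together. Their transcripts are short, stable and abundant, so they take a large part of the UMIs in many cell types, lymphocytes above all. The share of UMIs they take is a share of a whole: it is higher when these transcripts are more abundant and also when other transcripts are fewer.

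RefSeq promoter entries (GRCm38) matched 64 of the 84 members. The 30-base windows below run from 10 bases before the annotated start to 20 bases from it, on the gene's own strand, with the longest run of C and T letters that begins with C within 10 bases of the start in capitals. They are shown because they hold the feature the family is known for, because Rpl35, Rpl38 and Rps27rt stood apart in the sham library, and because Rps27 and its copy Rps27rt share most of the letters.
Rpl35, chr2:39005112-39005141, minus strand: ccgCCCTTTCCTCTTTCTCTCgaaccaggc
Rps6, chr4:86857348-86857377, minus strand: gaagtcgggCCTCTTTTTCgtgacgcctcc
Rpl38, chr11:114668570-114668599, plus strand: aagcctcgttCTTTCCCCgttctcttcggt
Rps27, chr3:90213629-90213658, minus strand: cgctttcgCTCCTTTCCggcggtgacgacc
Rps27rt, chr9:114982720-114982749, minus strand: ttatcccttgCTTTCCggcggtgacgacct
Rpl12, chr2:32961702-32961731, plus strand: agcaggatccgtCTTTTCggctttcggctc
Rpsa, chr9:120127756-120127785, plus strand: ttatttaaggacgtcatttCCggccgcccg
Rpl7l1, chr17:46782637-46782666, minus strand: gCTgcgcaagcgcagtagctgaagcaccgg
The run had 18 bases in Rpl35, 10 in Rps6, 8 in Rpl38 and 2 in Rpl7l1. A run of at least 8 bases was found in 24 of the 64 members, or 37.5%, against 9.37% of 26961 other genes with an entry. Among the mitochondrial ribosomal protein genes, whose products build a separate ribosome, 7.25% of 69 held one. The annotated start is 1 position per entry and real starts scatter, so a window without the run says only that these letters are not in it.

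Library depth after filtering ran from 9857631 UMIs in 1514 cells (sham) to 33389282 UMIs in 6209 cells (anti-VLA4), with median depths of 4515 to 5456.5 UMIs per cell. Members, mitochondrial and haemoglobin genes and the pathway lists below were left out of the clustering, so no cluster was formed on these genes. Malat1, whose share is given by cluster below, was not left out, and its part in forming the clusters was not tested. Of 25 clusters, 23 could be named from markers, and 4 classes had at least 50 cells in every library: endothelial-like (461 to 2730 cells per library), microglia-like (692 to 2461), T-cell-like (73 to 250) and border-macrophage-like (64 to 199). In endothelial-like cells the summed endothelial markers stood at 19684 to 20971 CPM (a gene's UMIs per 1000000 UMIs of the class and library) and the summed microglial markers at 78.8 to 352 CPM. The T-cell-like cluster also holds the natural killer cells. Libraries shared 78 of 15465 distinct barcodes, and 59 of these were shared by the sham and stroke isotype libraries alone, where the shallower copy had a median of 3.16% of the deeper copy's UMIs and 45 of the 59 pairs fell in 1 class. The deeper copy was the sham one in 55 of the 59.

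The share of UMIs from ribosomal protein genes followed the cell class more than the library. In the library order sham, stroke isotype, anti-VCAM1, anti-VLA4, T-cell-like cells had 22.0%, 28.9%, 29.6% and 31.1%. Dendritic-like cells, with 19 to 77 cells a library, had 21.3%, 25.7%, 29.6% and 32.0%. B-cell-like cells, with 15 to 87 cells a library, had 24.5%, 27.1%, 22.8% and 30.8%. Border-macrophage-like cells followed at 16.0%, 17.0%, 17.4% and 16.6%. Of the 4 larger classes the 2 most numerous were lowest: endothelial-like cells had 7.04%, 8.44%, 10.8% and 10.9%, and microglia-like cells 7.82%, 9.49%, 9.03% and 9.25%. Neither border-macrophage-like nor T-cell-like values overlapped with those 2 classes in any library. Endothelial-like and microglia-like cells swapped order, with microglia-like cells higher in both isotype libraries and endothelial-like cells higher in both antibody libraries. Single cells varied widely within a class. In microglia-like cells of the sham library the middle 50% of cells ran from 1.05% to 9.60%, and in T-cell-like cells from 14.4% to 31.5%.

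**Figure D1:**
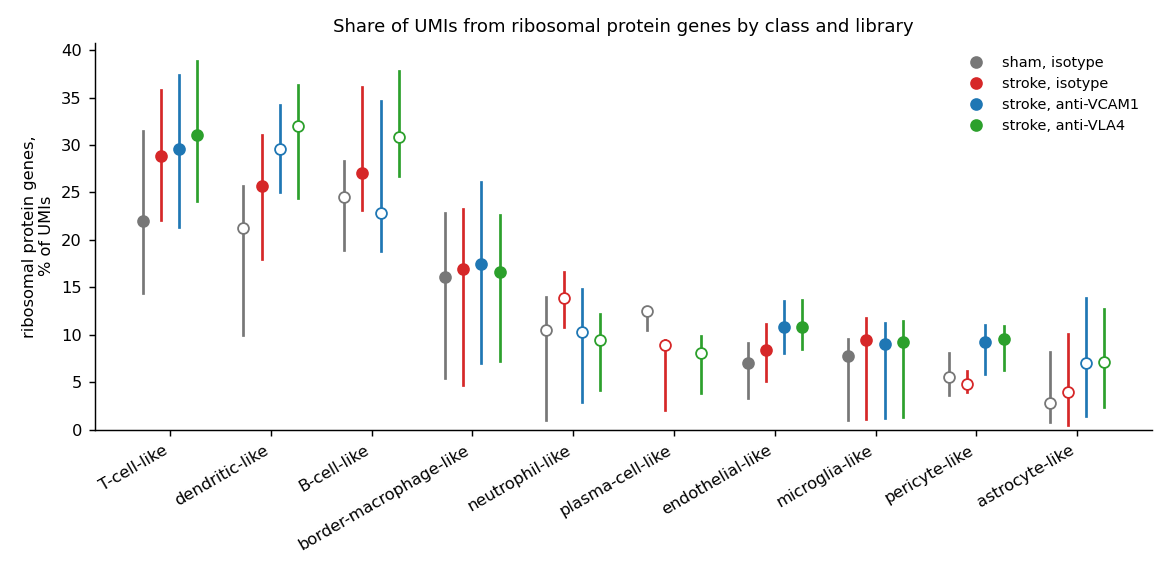
Share of UMIs from the 84 ribosomal protein genes (y axis, %) in each marker-defined class, 1 point per library (share of summed UMIs; filled where the class has at least 50 cells in that library, open otherwise) with a bar from the lower to the upper quartile of single cells. The 4 endothelial-like points run from 7.04% in the sham library to 10.9% with anti-VLA4, while microglia-like points stay between 7.82% and 9.49%.

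In endothelial-like cells, the lining of brain vessels, ribosomal protein genes took a higher share after stroke and a higher share again with either antibody. Against sham at 7.04%, stroke with isotype at 8.44% was higher (log2 ratio 0.26, interval 0.25 to 0.27). Against stroke with isotype, anti-VCAM1 at 10.8% was 1.28-fold higher (0.35, 0.35 to 0.36) and anti-VLA4 at 10.9% was 1.29-fold higher (0.36, 0.36 to 0.37). The endothelial-like class is a mixture of 7 clusters whose makeup differed between libraries. Cluster 0, the largest in each library, held 42.7% of the class in sham, 36.0% in stroke with isotype, 27.0% with anti-VCAM1 and 25.7% with anti-VLA4, and cluster 12, the lowest in ribosomal protein share, held 20.0%, 15.2%, 6.16% and 5.38%. With the makeup held equal between the 2 libraries compared, the log2 ratios were 0.14 for stroke, 0.20 for anti-VCAM1 and 0.20 for anti-VLA4. Within single clusters with at least 20 cells in both libraries, the share was higher in 5 of 6 clusters after stroke, and in 7 of 7 with each antibody (anti-VCAM1 0.058 to 0.78, anti-VLA4 0.090 to 0.51). The exception was cluster 7 after stroke, at -0.43, where haemoglobin genes took 24.0% of UMIs in stroke with isotype and 0% in sham. In the whole class the erythrocyte markers, mostly haemoglobin, stood at 329, 15446, 3782 and 5539 CPM in the same order of libraries. With haemoglobin UMIs left out of the total the class ratios were 0.28, 0.34 and 0.35.

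In microglia-like cells, the resident macrophages of brain tissue, the share was higher after stroke and slightly lower with the antibodies. Stroke with isotype at 9.49% was above sham at 7.82% (log2 ratio 0.28, interval 0.27 to 0.28). Anti-VCAM1 at 9.03% was lower than stroke with isotype (-0.071, -0.075 to -0.067), and so was anti-VLA4 at 9.25% (-0.036, -0.040 to -0.032). The anti-VLA4 value changed sign when each cell was thinned to 1000 UMIs (0.019) and when cells were weighted equally (0.014). Median depth in this class was 7341.5 UMIs in sham and 6093, 5312 and 5192 in the others, and its part in these values was not tested beyond the thinning. Inside single clusters, 5 of 5 were higher after stroke (0.19 to 0.47), while anti-VCAM1 was higher in 2 and lower in 5 of 7. With anti-VLA4, 3 of 7 were higher, 3 were lower and cluster 13 had an interval that held 0. Cluster 2 held most microglia-like cells in sham (39.7%) and stroke with isotype (30.1%), and cluster 1 in anti-VCAM1 (24.8%) and anti-VLA4 (33.6%).

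T-cell-like cells were 1.31-fold higher after stroke (28.9% against 22.0%, log2 ratio 0.39, interval 0.39 to 0.40), and this value rested in part on 6 sham cells. Those 6 of 73 sham cells had a barcode that was also in another library, held 22.9% of the UMIs of the sham class and had a share of 13.4%. Without any cell of a shared barcode the sham share was 24.5% and the stroke ratio 0.23; without only the shallower copies it was 0.39. Summed microglial markers stood at 2953 CPM in the sham T-cell-like class, and at 948, 1748 and 375 CPM in the others. Naming each cell on its own markers gave a stroke ratio of 0.20. Within the cluster, cells with T-cell markers of their own had 26.8%, 31.5%, 33.7% and 32.3%, and the 6 to 13 natural killer cells per library 23.3%, 21.0%, 20.4% and 24.2%. Border-macrophage-like cells stayed within 16.0% and 17.4%. Summed endothelial markers stood at 43.0, 30.2, 307 and 2027 CPM in this class and summed microglial markers at 3661, 3684, 4103 and 2661 CPM, so the anti-VLA4 library was highest in the first and lowest in the second, and their part in its values was not tested. Their stroke ratio of 0.082 became -0.0061 without cells of shared barcodes, which were 7 of the 117 sham cells and held 22.0% of the UMIs there.

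Smaller classes are given as values. Pericyte-like cells, which wrap capillaries, had 5.54%, 4.85%, 9.22% and 9.57% (10, 13, 55 and 90 cells) and astrocyte-like cells 2.84%, 3.98%, 7.01% and 7.17% (5, 23, 33 and 43 cells), so that in both the antibody libraries lay above both isotype libraries, as in endothelial-like cells. Neutrophil-like cells had 10.5%, 13.9%, 10.3% and 9.43% on 7 to 24 cells, with the antibody libraries below both isotype libraries. Plasma-cell-like cells had 12.5%, 8.90% and 8.06% in sham, stroke with isotype and anti-VLA4 (4, 25 and 6 cells) and 0 cells with anti-VCAM1, so that in 2 libraries they lay below microglia-like cells. Cluster 9, led by Gkn3, Pdgfd and Stmn2, was not small (88, 84, 236 and 334 cells) but stayed unnamed. Its share was 5.58%, 6.51%, 7.84% and 8.01%. It scored highest as endothelial, with 10 endothelial markers present, and is not counted in the endothelial-like class.

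Microglia-like clusters differed widely in their ribosomal protein share. In cluster 5 the share was 0.690%, 0.889%, 1.03% and 1.08% in the 4 libraries and in cluster 6 it was 0.991%, 1.37%, 1.65% and 1.52%, against 7.74% to 11.0% in clusters 1, 2 and 8. Both clusters detected at least 9 of the 10 microglial markers, so the low share came with the markers of the class. Malat1, a nuclear long noncoding RNA, took 4.88% to 5.92% of UMIs there, against 2.37% to 3.18% in clusters 1, 2 and 8, and the median depth was 2042.5 to 2986 UMIs against 5687.5 to 10070.5. Cells with a share under 3% were 32.9%, 35.1%, 33.4% and 31.7% of the class, a nearly level part. Without both clusters the antibody ratios were -0.10 and -0.068. At the other end, cluster 17 had 24.6%, 21.8% and 20.1% in the stroke libraries (34, 47 and 85 cells), with Malat1 at 0.412% to 0.670%. Cluster 13 had 16.6%, 15.5% and 16.6% there.

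Among endothelial-like clusters, 7 and 12 showed the same opposition of the 2 quantities, but not every pair of clusters did. Cluster 7 had the lowest Malat1 share, 0.205% to 0.249%, and a ribosomal protein share of 14.3%, 10.6%, 15.3% and 14.7%. Cluster 12 had Malat1 at 2.48% to 4.33% and ribosomal proteins at 2.96%, 4.11%, 7.05% and 5.86%. In sham, cluster 15 had more Malat1 than cluster 12 (2.77% against 2.48%) and also a higher ribosomal protein share (6.81% against 2.96%). Endothelial-like cells with a share under 3% were 22.8% in sham and 12.1% in stroke with isotype but 3.4% and 3.74% with the antibodies, whereas the median depth of the class stayed between 3756 and 4265 UMIs. Fewer such cells and a higher level per cell both enter the class value.

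**Figure D2:**
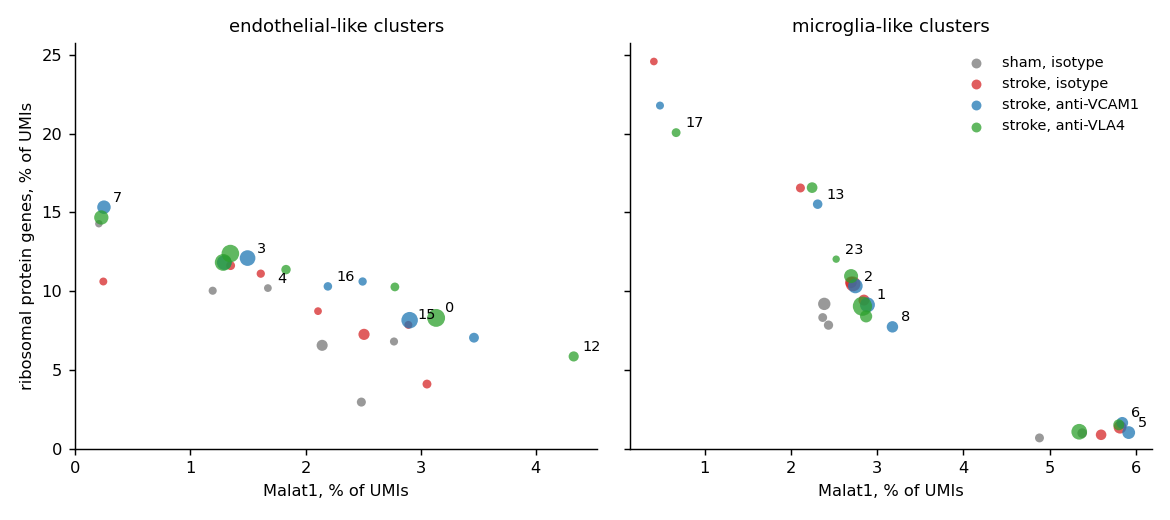
Ribosomal protein share (y axis, % of UMIs) against Malat1 share (x axis, % of UMIs) for endothelial-like (left) and microglia-like (right) clusters, 1 point per cluster and library with at least 20 cells, area growing with the number of cells and numbers naming clusters. Microglia-like clusters 5 and 6 sit apart, at 1.65% or less of ribosomal protein UMIs and 4.88% or more of Malat1.

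Gene by gene, the endothelial-like differences were shared by nearly the whole family. A gene was counted as higher or lower past 1.2-fold, among genes with at least 200 UMIs over the 2 libraries compared. After stroke 23 of 82 members were higher and 1 was lower, where 8.59% of all 4260 genes were higher and 16.4% lower. With anti-VCAM1 73 of 83 members were higher and 0 lower, where 19.3% of all 7195 genes were higher and 25.3% lower. With anti-VLA4 78 of 83 were higher and 0 lower, where 19% of all 7917 genes were higher and 26.8% lower. The median member log2 ratios were 0.23, 0.35 and 0.36, beside medians of -0.054, -0.026 and -0.034 over all genes tested. The middle 50% of members lay between 0.17 and 0.29, 0.30 and 0.37, and 0.33 and 0.39. The interval lay wholly above 0 in 73, 80 and 80 members, but the share over all genes was not computed. Counting-error intervals are narrow for genes with many UMIs, so these counts alone do not set the family apart. TMM scaling moved the median of all genes to 0.11 and 0.12 in the antibody comparisons, and 80 and 81 members were then higher, where 33.0% and 34.7% of all genes were. Few members went past 1.5-fold. After stroke 2 were higher and 1 lower (0.845% and 0.915% of all genes), with anti-VCAM1 1 was higher and 0 lower (1.64% and 5.07%), and with anti-VLA4 0 were past it (1.88% higher and 6.38% lower over all genes). In 81 of 83 members both antibody libraries lay above both isotype libraries, as did 29.5% of all 9220 genes, and in 81 the sham library was the lowest of the 4, as in 29.3% of all genes.

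**Figure D3:**
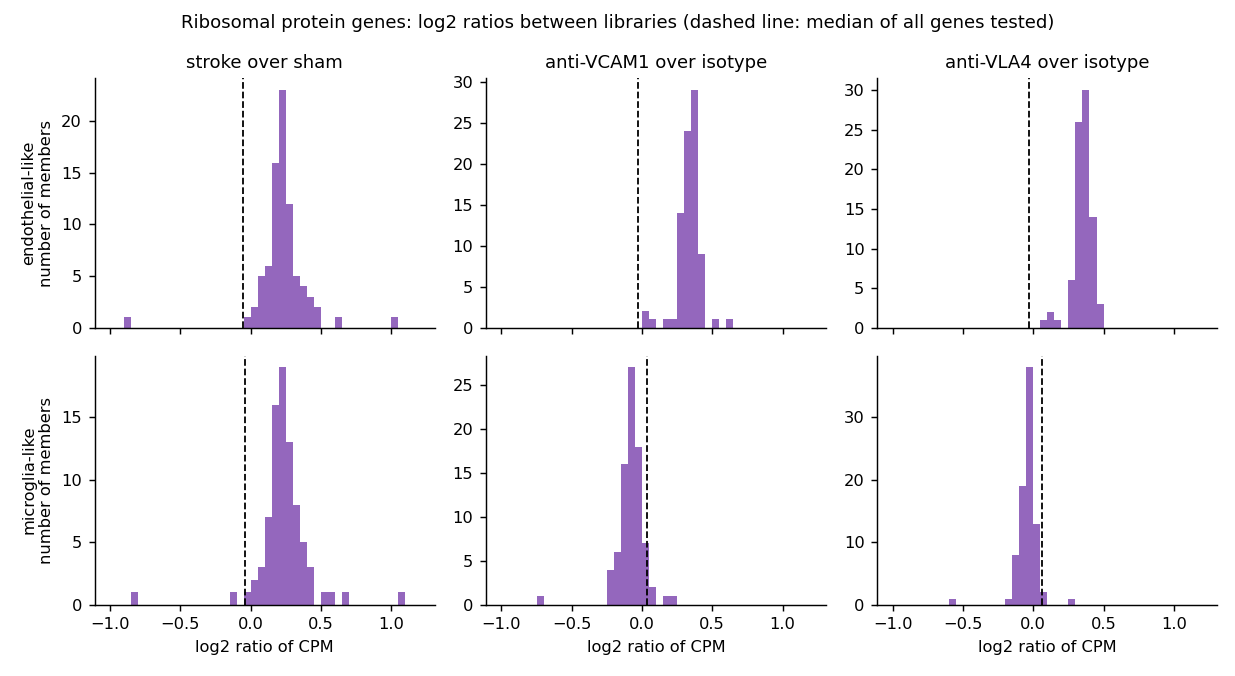
Distribution of member log2 ratios of CPM (x axis; bars count members in steps of 0.05) in endothelial-like (top) and microglia-like (bottom) cells for the 3 comparisons, with the median of all genes tested as a dashed line. All 83 tested members lie above 0 in the endothelial-like antibody comparisons, and the microglia-like antibody distributions lie around -0.072 and -0.039.

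Members with well-known roles moved with the rest in endothelial-like cells. The stalk proteins Rplp0, Rplp1 and Rplp2 recruit elongation factors to the ribosome. Rplp1 stood at 1457, 1651, 2079 and 2160 CPM in the same library order, with log2 ratios of 0.18, 0.33 and 0.39. Rps6, whose product is the target of S6 kinase, stood at 436, 506, 613 and 652 CPM (0.21, 0.28 and 0.37). Rpl5, which with Rpl11 carries the 5S ribosomal RNA and can bind MDM2, stood at 407, 424, 528 and 564 CPM (0.06, 0.31 and 0.41). Rpsa, also known as the laminin receptor, stood at 614, 736, 903 and 917 CPM. All 4 genes had their lowest level in sham and the 2 highest in the antibody libraries. Rpl11, Rpl13a, Rpl22, Rps19 and Rps27a had antibody ratios between 0.26 and 0.42. Rps28 and Rps27 of the small subunit were among the 3 highest in both antibody comparisons. Rps28 had 593, 707, 1074 and 973 CPM, with a log2 ratio of 0.60 (0.53 to 0.68) in the anti-VCAM1 comparison and 0.46 (0.39 to 0.53) in the anti-VLA4 comparison. Rps27, a zinc-finger protein of the small subunit, had 1076, 1334, 1908 and 1850 CPM (0.52 and 0.47). Rpl37 had an anti-VCAM1 ratio of 0.44 and Rpl12 an anti-VLA4 ratio of 0.47. The lowest were a paralog, a binding protein and the copy Rps27rt: Rpl7l1, the paralog of Rpl7, was at 72.9, 70.8, 72.5 and 76.7 CPM, with antibody ratios of 0.033 (-0.21 to 0.28) and 0.11 (-0.12 to 0.36), Rps19bp1 had 0.025 and 0.11, and Rps27rt 0.062 and 0.050, all with intervals that hold 0.

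In microglia-like cells the stroke difference had the same breadth and the antibody differences were small. After stroke 26 of 83 members were higher past 1.2-fold and 1 lower, where 6.13% of all 7566 genes were higher and 9.86% lower. With anti-VCAM1 0 were higher and 1 lower, where 6.91% of all 8432 genes were higher and 4.25% lower. With anti-VLA4 0 were higher and 1 lower, where 9.74% of all 8844 genes were higher and 6.16% lower. The single lower member in all 3 was Rps27rt, described below. Past 1.5-fold, 2 were higher and 1 lower after stroke (0.74% and 0.648% of all genes), Rps27rt alone was lower with anti-VCAM1 (0.261% higher and 0.439% lower over all genes), and 0 were past it with anti-VLA4 (0.509% and 1.29%). The median member ratios were 0.22, -0.072 and -0.039, beside -0.043, 0.034 and 0.059 over all genes tested. The interval lay above 0 in 77 members after stroke, and below 0 in 57 with anti-VCAM1 and 42 with anti-VLA4. With the antibodies it lay above 0 in 4 and 3 members. The shares over all genes were not computed, and with many UMIs per member even small differences give intervals without 0. Naming each cell on its own markers gave 9 members lower past 1.2-fold with anti-VCAM1 in place of 1, where 5.06% of all genes were lower. The sham library was the lowest of the 4 in 74 of 83 members, as in 29.6% of all 9943 genes, while both antibody libraries lay above both isotype libraries in 7 and below them in 5, as in 28% and 15.7% of all genes. Rplp1 stood at 2719, 3224, 2940 and 3137 CPM, high in the 3 stroke libraries and highest with isotype. Rps6 stood at 422, 457, 386 and 411 CPM, with ratios of 0.11 after stroke, -0.24 (-0.31 to -0.18) in the anti-VCAM1 comparison and -0.15 (-0.21 to -0.095) in the anti-VLA4 comparison. Rpl5 stood at 483, 510, 435 and 471 CPM and had the ratios 0.08, -0.23 and -0.11. For both genes the antibody libraries lay below both isotype libraries, which put them among the 5 such members. Rps28 had the anti-VCAM1 ratio 0.15 (0.12 to 0.19), and Rpl34 had the anti-VLA4 ratio 0.052 (0.020 to 0.084).

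In T-cell-like cells 63 of 80 members were higher after stroke and 1 lower, where 19.3% of all 1597 genes were higher and 28.3% lower. With anti-VCAM1 Rps28 was higher and Rps27rt lower, 1 each (11.3% and 20.9% of all genes), and with anti-VLA4 1 was higher, Rps27l, and 0 lower (13.4% and 25.1%). Both antibody libraries lay above both isotype libraries in 51 of 81 members, against 17.1% of all genes, and sham was the lowest in 76, against 27.5%. In border-macrophage-like cells 6 of 81 were higher after stroke and 1 lower, where 13.8% of all 1941 genes were higher and 16.2% lower. With anti-VCAM1 2 of 80 were higher, Rpl7a and Rps27l, and 1 lower, Rpl4 (14.1% and 18% of all genes), and with anti-VLA4 Rps27l was higher and Rplp0 lower (13.7% and 24.9%).

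A few members set the sham library apart from the 3 stroke libraries in the same way in all 4 classes. Rpl35, a protein at the exit of the nascent-chain tunnel, stood at 338, 694, 932 and 891 CPM in endothelial-like cells and at 331, 711, 729 and 681 CPM in microglia-like cells. The sham value was low in each. Its stroke log2 ratio was 1.04 (0.91 to 1.17) in endothelial-like, 1.10 (1.02 to 1.18) in microglia-like, 1.12 (0.98 to 1.26) in T-cell-like and 0.99 (0.86 to 1.12) in border-macrophage-like cells. Rps29, a small subunit protein, stood at 1862, 2843, 3745 and 3654 CPM in endothelial-like and at 2925, 4641, 4485 and 4403 CPM in microglia-like cells. Its stroke ratios over the 4 classes ran from 0.38 to 0.74. Rpl38, known for its part in the translation of Hox mRNAs in embryos, had stroke ratios of 0.47, 0.57, 0.71 and 0.24, and Rpl6 of 0.46, 0.54, 0.68 and 0.45. Rps27rt went the other way: it stood at 106, 59.6, 35.9 and 39.7 CPM in microglia-like cells, with stroke ratios of -0.85 (-1.19 to -0.54), -0.81 (-1.0 to -0.65), -0.87 (-1.12 to -0.63) and -1.32 (-1.64 to -1.02). Of 1019 genes tested in all 4 classes, 1 was higher past 1.5-fold after stroke in every class, Rpl35, and 2 were lower, Rps27rt and Zfp36. These 5 members were singled out after their values had been seen, and they are not the only ones of this kind. Rpl41 and Rpl24 were also lowest in sham in all 4 classes, in CPM and as a share of member UMIs. From sham to stroke with isotype, Rpl41 went from 1821 to 2436 CPM in endothelial-like and from 2491 to 3176 CPM in border-macrophage-like cells. Rpl24 went from 771 to 985 and from 1434 to 1741 CPM in the same classes. Without the 5 singled out, the stroke log2 ratio of the family was 0.24 in endothelial-like and 0.25 in microglia-like cells.

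**Figure D4:**
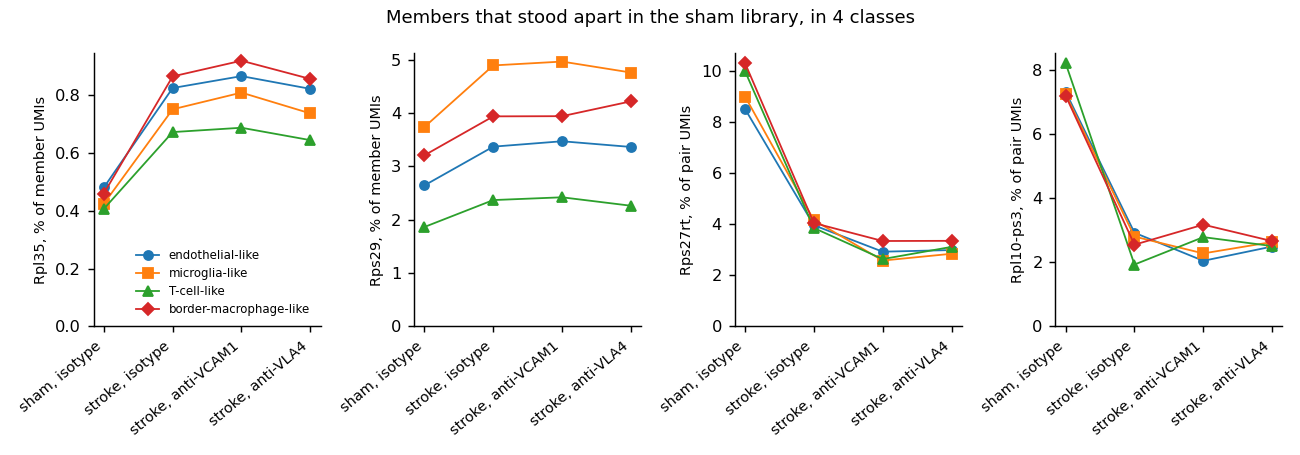
Rpl35 and Rps29 as % of all member UMIs, and the copies Rps27rt and Rpl10-ps3 as % of the UMIs of copy and parent together (y axes), in the 4 libraries (x axis), with 1 line per class. The sham library stands apart in all 4 classes, low for Rpl35 and Rps29 and high for both copies.

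Rps27rt is uncertain because its transcript is nearly that of Rps27. In the GENCODE M21 annotation 341 of the 374 bases of Rps27rt align to Rps27, with 341 identical. Their start windows above share the letters from CTTTCC on. Reads that lie within the aligned bases cannot tell them apart, and where the reads of these 3′ libraries fell was not checked. The share of Rps27rt in the UMIs of the pair was 8.52%, 3.96%, 2.93% and 2.99% in endothelial-like and 9.0%, 4.16%, 2.58% and 2.85% in microglia-like cells. T-cell-like (10.0%, 3.86%, 2.64% and 3.12%) and border-macrophage-like cells (10.3%, 4.05%, 3.35% and 3.35%) had like values, so the share followed the library and not the class. A second such copy, the pseudogene Rpl10-ps3 (737 of 768 bases align to Rpl10, with 737 identical), did the same, at 7.19% to 8.19% of its pair in sham and 1.93% to 3.17% in the other libraries. The pseudogene Rpl9-ps6, with 691 of 692 aligned bases identical to Rpl9, did not: it had 1.84% to 2.75% of its pair in sham and 1.21% to 2.66% elsewhere.

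Less similar paralogs differed between some classes and, in microglia-like cells, also between libraries. Rps27l, a p53-responsive paralog of Rps27 with 79.3% identity over the aligned bases, took 9.45% to 11.3% of its pair in endothelial-like, 5.97% to 7.42% in microglia-like and 1.47% to 2.56% in T-cell-like cells, ranges that do not overlap, and 5.50% to 6.88% in border-macrophage-like cells, which overlaps the microglia-like range. Rpl22l1 took 23.6% to 26.7% of its pair with Rpl22 in T-cell-like and 14.6% to 16.1% in border-macrophage-like cells. In endothelial-like cells it took 20.2% to 20.6%, and in microglia-like cells 21.1% in sham and 17.5% to 18.2% in the stroke libraries. Rpl36al took 26.9% to 36.7% of its pair in any class. Rpl39l, known from the testis, had 216 UMIs in all kept cells and 0.376% or less of its pair with Rpl39.

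Cell classes differed in which members made up their ribosomal protein UMIs. Each member was taken as a share of all member UMIs of its class and library. UMIs of this 3′ assay count transcripts and are not scaled by length. In T-cell-like over endothelial-like cells, 33 of 81 members were above and 35 below in all 4 libraries. For microglia-like cells it was 33 and 41 of 83, and for border-macrophage-like cells 30 and 39 of 82. Shares of 1 total cannot all be higher, and no such count was made for other genes. Whether these counts are particular to the family was therefore not tested. Rpl12, near the factor-binding stalk base, took 1.16%, 1.12%, 1.10% and 1.05% of member UMIs in T-cell-like and 0.459%, 0.404%, 0.427% and 0.435% in endothelial-like cells, a median log2 ratio of 1.35. Rpsa (1.12) and Rpl39 (0.96) followed, and their values in the 2 classes did not overlap. Rps27l (-2.29) and Rpl31 (-1.24) were among the lowest there. In microglia-like over endothelial-like cells the highest were Rpl39 (0.84), Rpl10 (0.83), which is needed for subunit joining, and Rplp1 (0.76). The lowest were Rpl38 (-1.33), Rps27l (-0.96) and Rpl41 (-0.70). Rpl38 took 1.04%, 1.27%, 1.37% and 1.32% of member UMIs in microglia-like and 2.85%, 3.29%, 3.34% and 3.23% in endothelial-like cells. Rpl39 was above endothelial-like cells in all 3 other classes and all 4 libraries, and Rps27l was below. Over all kept cells the most counted members included Rps29 (3.74% of member UMIs), Rps24 (2.74%), Rplp1 (2.50%) and Rpl13 (2.23%). The ratio of Rpl to Rps UMIs was 1.34 to 1.35 in endothelial-like, 1.28 to 1.30 in microglia-like, 1.22 to 1.25 in border-macrophage-like and 1.19 to 1.2 in T-cell-like cells, with no overlap between classes.

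**Figure D5:**
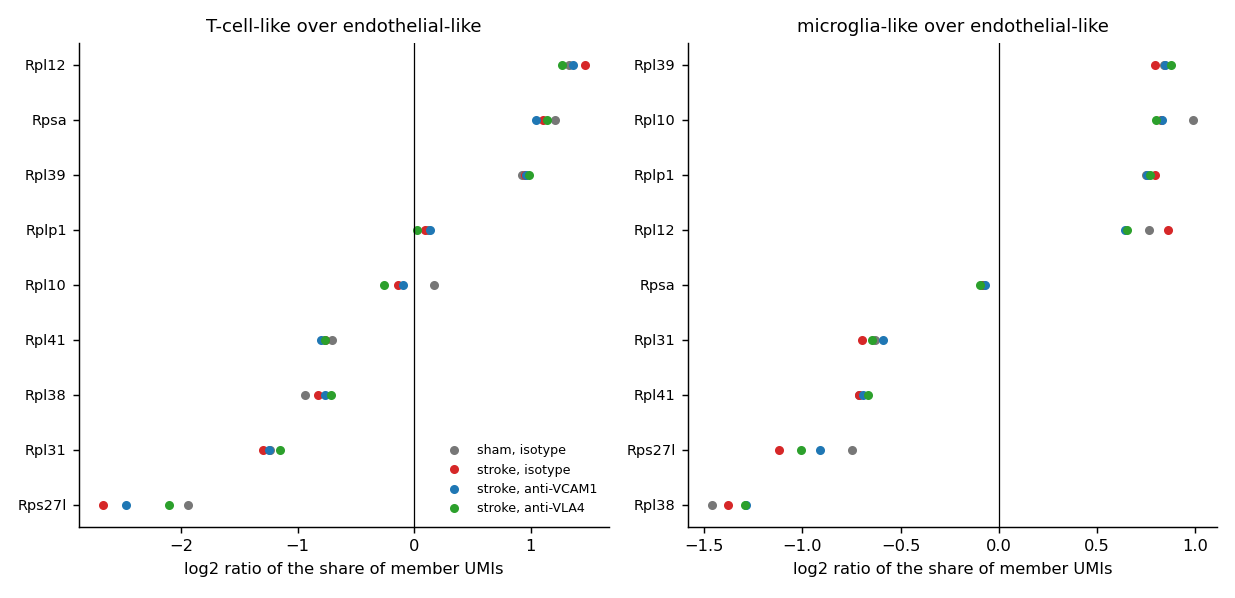
Log2 ratio of each member's share of member UMIs in T-cell-like (left) and microglia-like (right) over endothelial-like cells, for 9 of the members named in the text, 1 point per library. For most members the 4 libraries lie close together, and Rps27l is lowest in T-cell-like (median -2.29) and Rpl38 in microglia-like cells (median -1.33).

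Other genes of the translation machinery are read against the share of all genes past 1.2-fold in endothelial-like cells, which was 19.3% higher and 25.3% lower with anti-VCAM1 and 19% higher and 26.8% lower with anti-VLA4. Elongation factors, snoRNA hosts, ribosome biogenesis genes and mitochondrial ribosomal proteins lay above the share of higher genes in both comparisons. So did initiation factors with anti-VLA4 and, on 14 genes tested, mTOR regulators. Initiation factors with anti-VCAM1 and stress response genes lay near it, although 0 of 22 initiation factors were lower with either antibody. Fau and Rack1, subunit genes outside the prefixes, had antibody ratios of 0.31 to 0.43. Of 10 elongation factors and related genes, 8 were higher past 1.2-fold with anti-VCAM1 and 8 with anti-VLA4, and 0 were lower. Tpt1, a growth-related gene with a TOP mRNA, stood at 2623 CPM with isotype and 3604 CPM with anti-VLA4 (0.46). Eef1g had 156 and 217 CPM (0.47). Among snoRNA host genes, long noncoding RNAs of which some are known to begin with such tracts, 3 of 5 and 4 of 6 tested were higher, with Snhg8 at 39.3 CPM in stroke with isotype and at 71.4 and 70.3 CPM with the antibodies. Of 22 initiation factors 6 and 9 were higher and 0 were lower, led by Eif3h (157, 249 and 256 CPM). Ribosome biogenesis genes were higher in 7 of 21 and 9 of 22, among them Gar1, a snoRNP protein (20.3, 33.2 and 35.3 CPM). Mitochondrial ribosomal protein genes were higher in 31 of 73 and 30 of 75, and lower in 0 and 3, and their median ratios of 0.22 and 0.22 lay below those of the cytosolic family. Regulators of the mTOR pathway were split, with 5 of 14 higher in each comparison and 2 and 3 lower. Rptor, the mTORC1 scaffold, was at 59.6, 36.9 and 39.2 CPM. Integrated stress response genes had medians of -0.17 and -0.096, with 1 of 8 and 2 of 10 higher and 3 and 3 lower. After stroke in endothelial-like cells 0 of 10 elongation factors were higher and 1 lower, Pabpc1, the poly(A)-binding protein (274 to 201 CPM, -0.44), while 17 of 32 mitochondrial ribosomal protein genes were higher, where 8.59% of all genes were higher and 16.4% lower.

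In microglia-like cells few genes of these lists were past 1.2-fold. After stroke 0 of 10 elongation factors, 0 of 22 initiation factors and 0 of 20 biogenesis genes were higher, and 1, 4 and 3 were lower. With 6.13% of all genes higher and 9.86% lower, counts of 0 in lists of this size lie near the background. Fau had a log2 ratio of 0.30 (0.27 to 0.33), from 2864 CPM in sham to 3533 CPM after stroke. With anti-VCAM1, where the elongation factors had a median of -0.069 and 0 of 10 were past 1.2-fold, Tpt1 was at -0.26, Eef1g at -0.23 and Eef1a1 at -0.073. With anti-VLA4 0 of 10 were higher and 1 lower, Pabpc1 (-0.33). Atf4, the transcription factor of the integrated stress response, stood at 85.4 CPM in sham and 54.2 CPM in stroke with isotype (-0.65). The mitochondrial ribosomal protein genes had a median of 0.060 after stroke and of 0.11 and 0.11 with the antibodies, where the cytosolic family had 0.22, -0.072 and -0.039.

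Members with and without a pyrimidine run of at least 8 bases had like ratios. In endothelial-like cells the medians of the 24 members with the run and of those without were 0.24 and 0.23 after stroke, 0.36 and 0.34 with anti-VCAM1 and 0.36 and 0.34 with anti-VLA4. In microglia-like cells after stroke they were 0.23 and 0.20. These members share libraries and depth and are not replicates. Across them the stroke ratio had a Spearman correlation with coding length of -0.46 in endothelial-like, -0.41 in microglia-like, -0.45 in T-cell-like and -0.19 in border-macrophage-like cells. Members with shorter coding sequences thus tended to the higher stroke ratios in the first 3 classes. With transcript length the Spearman values were weaker, at -0.31, -0.25, -0.25 and -0.052. Pearson values with log2 transcript length were -0.052, -0.045, -0.021 and 0.13. Coding length was also set against the antibody ratios, in the order anti-VCAM1 and anti-VLA4. The Spearman values were -0.36 and 0.041 in endothelial-like and -0.40 and -0.33 in microglia-like cells. They were -0.12 and -0.23 in T-cell-like and -0.19 and -0.38 in border-macrophage-like cells. Negative values were thus not confined to the stroke comparison.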

How the data were processed

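Single-cell 3′ libraries (Chromium v3.1) were analysed for 4 groups of 1 library each, with groups taken from the sample titles. The authors deposited raw UMI counts per gene and barcode; Cell Ranger 7.0.1 made them per the file headers, whereas the submitters' processing notes name Cell Ranger 6.0.0, Seurat 4.3.0.1 and the builds mm10 and GRCh38. The annotation used for counting is not given in the sources used here, so how reads of near-identical copies were assigned is open. Members and lists were chosen with earlier results of these data known.

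Cells with at least 500 UMIs, 200 genes and at most 10% mitochondrial UMIs were kept, and Scrublet marked 0.721% to 1.96% per library as doublets, which were left out. Clustering used scanpy 1.11.5 and leidenalg 0.10.2 (2000 variable genes, 30 components, 15 neighbours, resolution 1) without 300 genes (the members, mitochondrial and haemoglobin genes and the lists). A cluster was given the class on which it scored highest when 3 or more markers, each seen in at least 25% of cells, had a log2 fold of at least 1, if no other class had more markers among the top 10 genes, and if fewer than 3 markers of another lineage were present. That wording was settled after the clusters had been seen. UMIs were summed per class and library. Shares have exact Clopper-Pearson intervals and ratios conditional binomial intervals at 95%. Log2 ratios of genes used CPM with a pseudocount of 1. The scripts were tested on simulated data. The work ran in R 4.3.3 with edgeR 4.0.16 (TMM factors only) and in Python 3.11.15 with pandas 2.3.3, scipy 1.17.1 and numpy 2.4.6. Promoter entries were from RefSeq and transcripts from GENCODE M21, both on GRCm38.

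Named members were those with a fixed role, all paralogs with their parents, the 3 highest and 3 lowest ratios per comparison in microglia-like and in endothelial-like cells, the 5 most counted, the 3 most different per class against endothelial-like cells, and up to 2 genes per list. Some genes under these rules are not reported here. Others, such as Rpl6, Rpl10-ps3 and Malat1, were picked once their values were known. Alternatives changed the cell filter, doublets, resolution, naming, depth, weighting, denominator, class makeup, member list, fold, count minimum and scaling.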

Additional observations from a re-analysis of the deposited data

Results flagged for a closer look

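The antibody comparisons had log2 ratios of opposite sign in different classes. With anti-VCAM1 the log2 ratio of the ribosomal protein share was 0.35 in endothelial-like, 0.033 in T-cell-like and 0.038 in border-macrophage-like cells and -0.071 in microglia-like cells. With anti-VLA4 it was 0.36 in endothelial-like and 0.11 in T-cell-like cells, and -0.029 in border-macrophage-like and -0.036 in microglia-like cells. Both negative anti-VLA4 values were positive when cells were thinned to 1000 UMIs (0.0187 in microglia-like and 0.119 in border-macrophage-like cells) and as means of cells (0.0143 and 0.0925), so the opposite signs for that antibody depend on the setting. With 1 library per group the differences between classes were not tested. The 2 antibody comparisons share the stroke isotype library.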

How the results depend on the processing

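No paired analysis was possible because each group is 1 library, so no replicate could be left out either. The endothelial-like log2 ratios of the ribosomal protein share stayed above 0 in all 16 alternatives, with stroke at 0.14 to 0.33, anti-VCAM1 at 0.20 to 0.40 and anti-VLA4 at 0.20 to 0.41. Microglia-like values over 15 alternatives ran from 0.21 to 0.31, from -0.15 to -0.050 and from -0.13 to 0.019. In the order stroke, anti-VCAM1 and anti-VLA4, the endothelial-like values were 0.272, 0.342 and 0.352 with the strict cell filter, 0.305, 0.366 and 0.394 with doublets kept, 0.293, 0.375 and 0.388 at resolution 0.5, 0.298, 0.348 and 0.349 when each cell was named by itself, 0.327, 0.405 and 0.413 thinned, 0.307, 0.389 and 0.403 as means of cells, and 0.140, 0.199 and 0.203 with equal makeup. Among alternatives added after seeing the data, they were 0.283, 0.338 and 0.350 without haemoglobin. They were 0.309 and 0.336 for the antibodies without cluster 7, and 0.365 for anti-VCAM1 with the unnamed clusters counted in. For stroke the value was 0.236 without the 5 members singled out above. In the same order the microglia-like values were 0.215, -0.151 and -0.131 on own markers, 0.272, -0.0526 and 0.0187 thinned, 0.261, -0.0502 and 0.0143 as means of cells, and 0.231, -0.115 and -0.0718 with equal makeup. Added later were 0.311, -0.101 and -0.0682 without clusters 5 and 6, 0.298 and -0.0659 (stroke and anti-VCAM1) without shared barcodes, and 0.249 for stroke without the 5 members. Anti-VCAM1 was at -0.0772 with doublets kept. Taking mitochondrial UMIs out of the total gave -0.0406 for anti-VLA4, and taking Malat1 out as well gave 0.285 for stroke and -0.0419 for anti-VLA4. The border-macrophage-like anti-VLA4 value of -0.029 turned to 0.0176 at resolution 0.5, 0.119 thinned and 0.0925 as a mean of cells, and the stroke value to -0.0061 without shared barcodes. The cause was not tested for any of these.

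Members past the fold, both directions summed, were 24, 73 and 78 in endothelial-like and 27, 1 and 1 in microglia-like cells. At 1.5-fold they were 3, 1 and 0, and 3 and 0 (stroke and anti-VLA4). TMM scaling gave 46 for endothelial-like stroke (12.3% of all genes higher, 12.4% lower), 47 for microglia-like stroke (9.21% and 6.53%) and 2 for anti-VCAM1 there (5.56% and 5.12%). Own markers gave 40 for endothelial-like stroke (10.0% and 14.5%) and 14 (5.40% and 9.07%), 9 (7.79% and 5.06%) and 3 (11.2% and 6.81%) in microglia-like cells. Thinning gave 46 for endothelial-like stroke (16.8% and 17.0%) and 0 and 0 for the microglia-like antibody comparisons (7.98% and 8.27%, 11.5% and 8.60%), and a minimum of 20 UMIs gave 2 for microglia-like anti-VLA4 (14.6% and 10.5%). Depth limited the gene counts in the 2 smaller classes, where 1504 to 1941 genes could be tested per comparison.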
